A study of Mus musculus with 2 samples.

Results

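Cluster C4 of the mouse melanoma line B16F0 held 469 cells, out of 2582 cells of that line and 4156 cells in all. The cells were taken as members where the authors' deposited cell annotation names the line B16F0 and, in its column Cluster2, the cluster C4. Messenger RNA was measured cell by cell in droplets, and each RNA molecule was tallied through a random tag, its unique molecular identifier (UMI). The 2 lines are B16F0, labelled as parental, and B16F10, labelled as a highly metastatic subclone. Both are established lines grown in culture, and the labels name no treatment, time point or engineered allele for either. Each line was 1 library, so the cells below come from 1 sample and are not replicates. The clusters were also made from the genes of these same cells. For both reasons no test was made and no p-value is given: levels are CPM, the UMIs of a gene for every 1000000 UMIs of the summed cells, with exact 95% Poisson intervals, ratios are log2 ratios of CPM with exact 95% conditional binomial intervals, and these intervals cover counting error only.

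In the cycle of a dividing cell, DNA is copied in S phase and the copies are pulled apart in mitosis, after a gap called G2. Genes for DNA copying are transcribed early under E2F factors, while genes for mitosis peak in G2 and M under the MuvB complex with B-MYB and FOXM1, and their products are destroyed by the anaphase-promoting complex as the cell divides. Melanoma cells descend from melanocytes, whose master regulator MITF drives the enzymes and matrix proteins of the pigment organelle, the melanosome.

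C4 and the other B16F0 cells differed little in depth. A C4 cell held a median of 38645 UMIs and 5615 genes, against 34770 UMIs and 5146 genes in the other 2113 cells, and mitochondrially encoded transcripts took a median of 4.87% and 5.46% of the UMIs. The other B16F0 cells fell into C1 with 816 cells, C2 with 644, C3 with 640 and C5 with 13. Markers of other cell types were near 0 in C4: of 10 T and NK cell markers none was in the count table, the keratinocyte markers summed to 1.31 CPM, the fibroblast markers to 6.86 CPM and the macrophage markers to 7.62 CPM, against 1.42, 6.50 and 10.1 CPM in the other B16F0 cells. The endothelial list summed to 60.7 CPM in C4 and 68.3 CPM in the others, of which Egfl7 alone made up 59.7 and 67.7 CPM. Of 6 cell barcodes that occurred in both libraries, 1 belonged to C4.

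The deposited classes describe C4 as a cluster of cycling cells. The authors' class was Cycling for 467 of the 469 cells (99.6%, exact Clopper-Pearson interval 98.5 to 99.9), against 944 of the other 2113 (44.7%, 42.5 to 46.8), and the 2 remaining C4 cells had a median of only 17607 UMIs. The median deposited S.Score, which summarises S phase genes, was 0.0949 in C4 (quartiles -0.0393 and 0.197), and the median G2M.Score, which summarises G2 and M genes, was 0.150 (quartiles -0.00732 and 0.301). C2, the other cluster of nearly all cycling cells, had a higher S.Score of 0.132 and a lower G2M.Score of 0.0812, while C1 and C3 had medians below 0 on both scores. The larger score was G2M in 255 C4 cells (54.4%, 49.7 to 58.9) and S in 212 (45.2%, 40.6 to 49.8), whereas in C2 it was G2M in 271 and S in 370. C4 thus held cells with a high S.Score and cells with a high G2M.Score, and its scores overlapped those of C2.

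**Figure D1:**
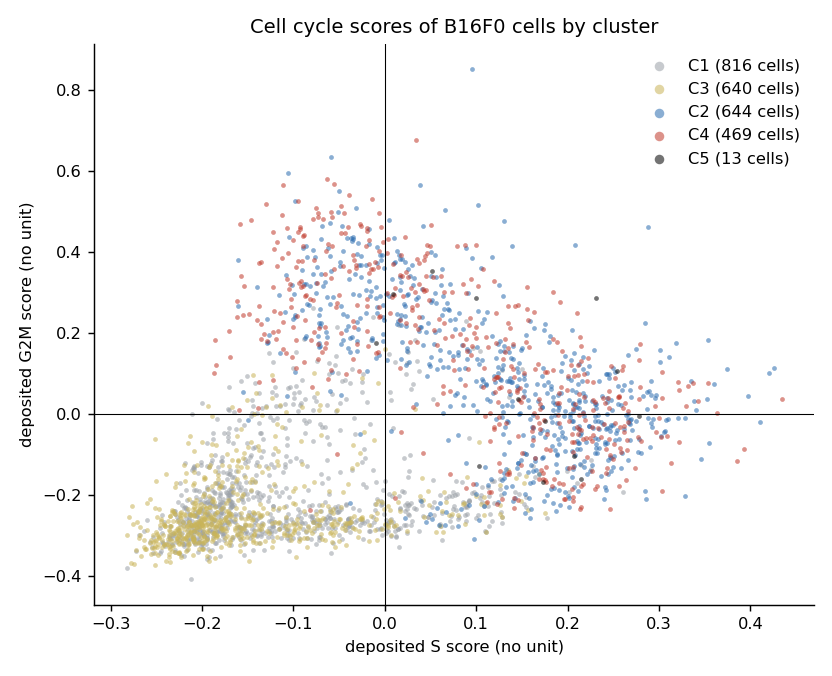
Deposited S.Score (horizontal axis) against G2M.Score (vertical axis), both without units, for every B16F0 cell, with each point a cell, coloured by cluster. The 469 C4 cells reach from below 0 to above 0 on each axis and overlap the C2 cells, with a median G2M.Score of 0.150 against 0.0812 in C2.

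Other deposited values also differed between C4 and C2, with overlap. The score for MITF targets had a median of 0.133 in C4 (quartiles -0.0917 and 0.292) and -0.173 in C2 (-0.400 and 0.0266). It was 0.281 in C3 and 0.0163 in C1. Pseudotime, the position along an inferred trajectory, had a median of 3.59 in C4 (quartiles 1.36 and 5.07) and 1.04 in C2 (0.827 and 3.50). The trajectory states of C4 were mixed, with 152 cells in state 1, 132 in state 4, 89 in state 2, 88 in state 5, 6 in state 7, 2 in state 3 and 0 in state 6, where 0 of 469 allows a share of up to 0.783%. The coarser clustering in the column Cluster1 placed 377 C4 cells in its cluster F0 and 92 in its cluster F10 (19.6%, 16.1 to 23.5), against 29 of the other 2113 B16F0 cells (1.37%, 0.921 to 1.97). The median score for MITF targets was 0.186 in the 377 cells and -0.194 in the 92, which is below that of C2. The class Kdm5b high, named for a histone demethylase gene linked to slow cycling, was given to 10 C4 cells (2.13%, 1.03 to 3.89), to 6 of 644 C2 cells (0.932%, 0.343 to 2.02) and to 101 of all 2113 others (4.78%).

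The label of the cluster was checked against its markers Top2a and Cenpf. Top2a, which encodes the topoisomerase that untangles replicated DNA (chr11:98992943-99024189, minus strand, GRCm38), stood at 243 CPM (236 to 250.5) in C4 and 99.5 CPM (97.2 to 102) in the other B16F0 cells. A C4 cell held a median of 9 Top2a UMIs (quartiles 3 and 15), and the other cells a median of 1 (0 and 4). Cenpf, whose protein sits at the outer kinetochore (chr1:189640606-189688086, minus strand), stood at 164 CPM (158 to 170) in C4 and 45.5 CPM (44.0 to 47.1) in the others, with medians of 3 and 0 UMIs per cell. Both markers were high in C4, and both were also high in C2, where Top2a reached 266 CPM and Cenpf 118 CPM. They mark the cycling state that C4 and C2 share and do not by themselves separate the clusters.

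Against all other B16F0 cells, C4 was higher in the machinery of mitosis and of DNA replication. Of 5129 genes with at least 20 CPM on the higher side, 137 were at least 2-fold higher in C4 (2.67%) and 24 were at least 2-fold lower (0.468%), with a median log2 ratio over all of them of 0.09. Of the 137 higher genes 94 belonged to a cell cycle list and 49 to the S and G2M lists of the Seurat package, which are assumed here to underlie the deposited scores. Cell cycle list means the Seurat lists and the lists below of mitotic, chromosome, nuclear envelope, histone, MuvB and replication genes. Lists of G1, CDK inhibitors and p53 targets, recombination and tubulins were not counted. The share of listed genes among all 5129 was not counted either. The cluster was made from the genes of these same cells, so the counts describe C4 and support nothing about it.

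Among genes at 50 CPM or more, the highest ratios lay among genes that act in mitosis. Reep4, whose protein clears the endoplasmic reticulum from mitotic chromosomes, stood at 69.6 CPM in C4 and 16.5 CPM in the other cells, a log2 ratio of 2.08 (1.96 to 2.19). Aurka, the kinase that matures the spindle poles, stood at 78.8 and 19.0 CPM, a log2 ratio of 2.05 (1.95 to 2.16). Cdc20, the activator of the anaphase-promoting complex, stood at 77.2 and 20.6 CPM, a log2 ratio of 1.90 (1.80 to 2.01). All 3 were expressed unevenly over the C4 cells: the median UMI count per cell was 2, 2 and 1, and the highest cell held 16, 24 and 30. Cells thinned to 19718 UMIs, which left out 45 C4 and 214 other cells, held at least 1 Cdc20 UMI in 52.8% of C4 cells and 18.5% of the others, and without thinning in 61.4% and 26.3%. No cell class in these libraries is known to lack these genes, so no share of free RNA could be set beside them.

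Further genes of the same rank named the parts of the mitotic machine. Nusap1 and Prc1, which bundle spindle microtubules, had log2 ratios of 1.87 and 1.77, and Tpx2, which activates Aurora A, had 1.57. Cenpe, a kinetochore motor, had a ratio of 1.80 and Spc25, a subunit of the kinetochore's NDC80 complex, 1.51. Ccnb1, the B-type cyclin that drives entry into mitosis, stood at 119 CPM in C4 and 35.8 CPM elsewhere (1.74), and Plk1, a kinase of the same step, at 46.1 and 13.0 CPM (1.82). Ube2c, the conjugating enzyme of the anaphase-promoting complex, was the most abundant of this group at 393 CPM against 122 CPM (1.69). Pbk, a mitotic kinase, Ube2t, which ubiquitinates Fanconi proteins, Pimreg, a regulator of the metaphase to anaphase step, and Mxd3, a MAX dimerisation partner, completed the 15 highest at that level, with ratios of 1.70, 1.67, 1.66 and 1.59.

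By role, nearly all members of several mitotic lists were higher in C4. Of all 7248 genes with at least 10 CPM on the higher side, 562 (7.75%) were at least 1.5-fold higher in C4 and 153 (2.11%) at least 1.5-fold lower. Among Aurora kinases and the chromosomal passenger complex, 7 of 7 members were higher and the median log2 ratio was 1.45, with Cdca8 at 1.5 and Aurkb at 1.49. Among G2 and M cyclins and CDK regulators 13 of 14 were higher (median 1.24), and Cdc25b, a phosphatase that activates CDK1, stood at 1.61. Of 31 centromere and kinetochore genes 29 were higher (median 1.19), with Cenpl at 1.97 and Knl1, the scaffold of the outer kinetochore, at 1.93. Of 25 spindle motor and microtubule-binding genes 21 were higher (median 1.31), with Kif22, a chromosome arm motor, at 1.95, and over those at 100 CPM or more the median was 0.48. Spindle checkpoint and anaphase-promoting complex genes were more mixed, 13 of 22 being higher (median 0.65).

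Regulators and structural genes followed with smaller ratios. Among MuvB, MYB and FOXM1 regulators 8 of 18 were at least 1.5-fold higher (median 0.45), including Mybl2, which encodes B-MYB, at 38.9 against 14.5 CPM (1.43) and Foxm1 at 51.1 against 24.4 CPM (1.07). Centrosome genes were higher in 10 of 16 (median 0.62) and nuclear lamina and envelope genes in 8 of 15 (median 0.65), with Lbr, the lamin B receptor, at 1.07. Of 18 condensin and cohesin genes 10 were at least 1.5-fold higher (median 0.79), led by Ncaph at 1.47 and Ncapg at 1.38. Cytokinesis genes were higher in 8 of 13 (median 1.14), with Cep55, which recruits the abscission machinery, at 1.5, but over the 4 members at 100 CPM or more their median was -0.01. Tubulin genes were higher in 7 of 10 (median 0.71), with Tubb4b at 1.22, although near-identical tubulin sequences can share reads. Among HMG proteins and histone variants only 5 of 16 reached 1.5-fold, among them Hmgb2, a chromatin protein abundant in dividing cells, at 644 CPM against 254 CPM (1.34). H2afz, the most abundant of the named variants, stood at 3955 CPM against 2683 CPM (0.56). Of 19 replication-dependent histone genes in the counts 3 reached 10 CPM, and the transcripts of this family are known mostly to lack a poly(A) tail. Hist1h2bc was lower in C4 at 25.4 CPM against 52.7 CPM (-1.05).

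**Figure D2:**
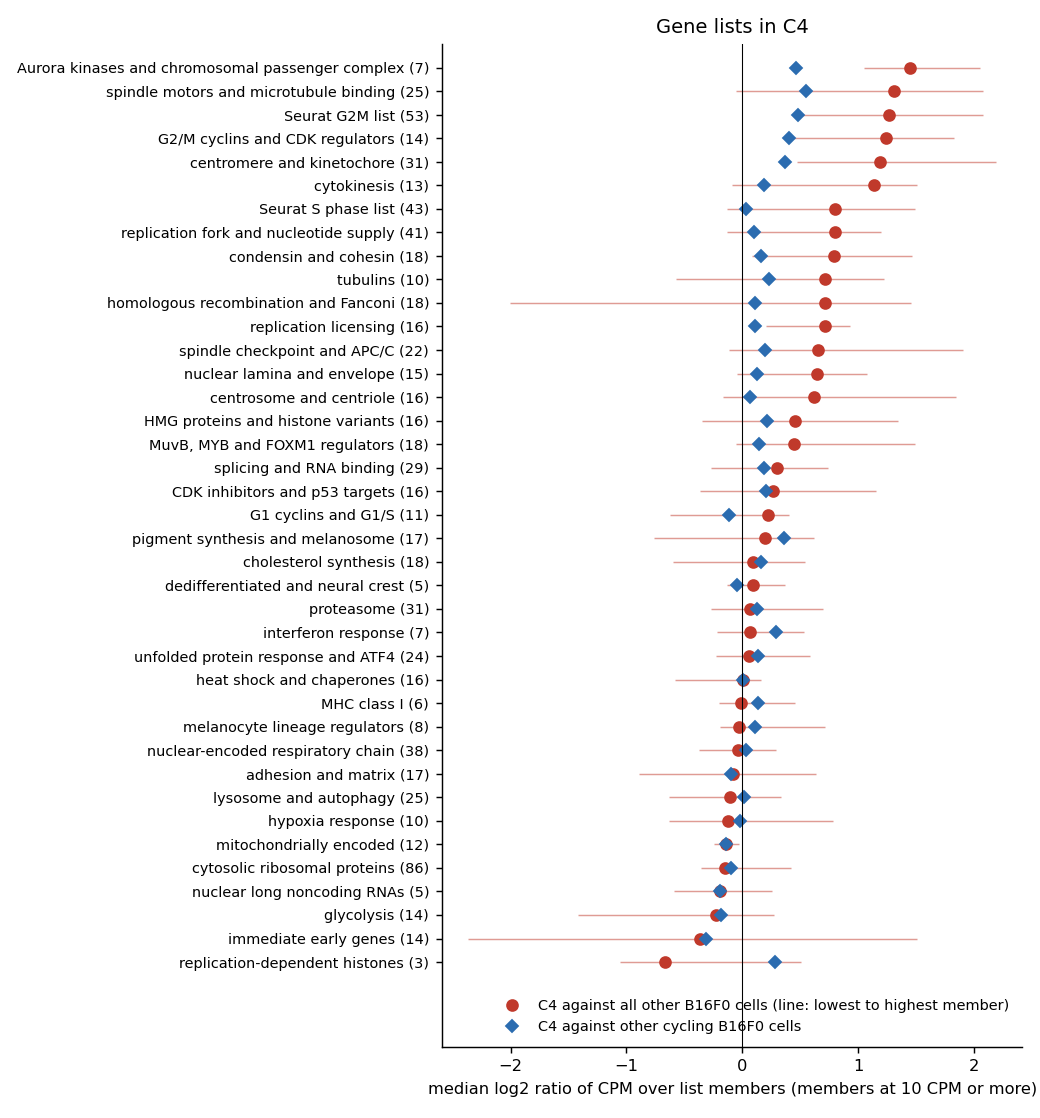
Median log2 ratio of CPM (horizontal axis) of each gene list, over members with at least 10 CPM on the higher side, for C4 against all other B16F0 cells (circles, with lines from the lowest to the highest member) and for cycling C4 cells against the other cycling B16F0 cells (diamonds). The mitotic lists reach 1.45 in the first comparison and the spindle motor list 0.55 in the second, where most other lists lie near 0.

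Promoter sequences are shown for 6 of these mitotic genes, because a shared pair of short motifs recurs among the genes that were higher in C4. The sequences are RefSeq promoters of build GRCm38.p6, from 250 bases before the transcription start to 50 bases after it, 5′ to 3′ on the strand of the gene, and capitals mark each CCAAT box (letters CCAAT) and each cell cycle homology region (letters TTTGAA or TTTAAA), on either strand. CCAAT is the box known to be bound by NF-Y, and the cell cycle homology region is the element known to be bound by MuvB. The windows lie at chr13:100786437-100786736 (minus strand) for Ccnb1, chr4:118437294-118437593 (minus) for Cdc20, chr2:172370521-172370820 (minus) for Aurka, chr2:164769679-164769978 (plus) for Ube2c, chr1:189688037-189688336 (minus) for Cenpf and chr11:99024140-99024439 (minus) for Top2a.
Ccnb1: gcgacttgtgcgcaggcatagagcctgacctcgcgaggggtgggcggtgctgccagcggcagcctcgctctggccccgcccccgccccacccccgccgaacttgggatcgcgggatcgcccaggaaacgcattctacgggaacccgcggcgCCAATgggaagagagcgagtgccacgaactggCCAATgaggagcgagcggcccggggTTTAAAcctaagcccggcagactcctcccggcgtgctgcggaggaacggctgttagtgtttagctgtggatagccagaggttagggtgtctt
Cdc20: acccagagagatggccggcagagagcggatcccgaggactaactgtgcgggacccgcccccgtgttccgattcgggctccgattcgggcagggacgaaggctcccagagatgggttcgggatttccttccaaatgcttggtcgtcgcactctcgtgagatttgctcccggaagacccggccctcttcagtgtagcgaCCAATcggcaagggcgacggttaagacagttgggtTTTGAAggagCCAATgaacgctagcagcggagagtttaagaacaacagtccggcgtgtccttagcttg
Aurka: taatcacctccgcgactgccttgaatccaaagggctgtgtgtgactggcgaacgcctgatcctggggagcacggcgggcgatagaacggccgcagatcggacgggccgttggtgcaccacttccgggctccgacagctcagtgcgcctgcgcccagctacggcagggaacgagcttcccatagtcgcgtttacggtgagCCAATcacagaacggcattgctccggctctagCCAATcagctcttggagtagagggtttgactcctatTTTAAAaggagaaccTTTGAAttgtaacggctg
Ube2c: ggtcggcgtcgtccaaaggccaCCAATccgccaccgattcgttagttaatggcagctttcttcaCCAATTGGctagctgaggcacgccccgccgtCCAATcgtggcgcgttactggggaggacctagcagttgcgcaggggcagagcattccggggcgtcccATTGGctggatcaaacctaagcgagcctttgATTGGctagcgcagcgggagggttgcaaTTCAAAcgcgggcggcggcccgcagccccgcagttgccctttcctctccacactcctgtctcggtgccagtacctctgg
Cenpf: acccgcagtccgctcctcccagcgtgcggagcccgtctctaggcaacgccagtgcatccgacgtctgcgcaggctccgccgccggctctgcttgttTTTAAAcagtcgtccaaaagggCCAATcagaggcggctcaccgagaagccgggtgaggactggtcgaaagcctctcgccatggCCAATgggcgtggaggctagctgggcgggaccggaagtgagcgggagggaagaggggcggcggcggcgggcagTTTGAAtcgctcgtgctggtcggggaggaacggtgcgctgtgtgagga
Top2a: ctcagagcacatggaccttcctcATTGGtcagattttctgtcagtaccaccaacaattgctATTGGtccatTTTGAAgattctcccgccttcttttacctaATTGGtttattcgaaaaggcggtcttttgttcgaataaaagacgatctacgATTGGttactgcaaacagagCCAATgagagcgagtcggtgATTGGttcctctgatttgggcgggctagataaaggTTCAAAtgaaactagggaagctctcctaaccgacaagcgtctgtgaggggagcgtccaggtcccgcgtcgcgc

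Of the 137 genes at least 2-fold higher in C4, 108 had a RefSeq promoter matched by symbol. A cell cycle homology region was present in 63 of the 108 promoters (58.3%), against 792 of 4118 promoters of all genes at 20 CPM or more (19.2%) and 27.9% of all 27025 promoters. A CCAAT box was present in 72 (66.7%), against 39.2% and 38.0%, and both motifs together in 51 (47.2%), against 8.13% and 10.95%. An E2F motif (on either strand, any of the letters TTCCCGC, or TTGGCGC, or TTCGCGC, or TTGCCGC) was present in 32 (29.6%), against 19.3% and 9.72%. The E2F letters can overlap a CCAAT box read on the other strand, as in Ccnb1, so the counts are not independent of each other. A match is a run of letters in this window and not a measured binding site.

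Replication genes were also higher in C4 than in the other B16F0 cells. At 10 CPM or more their medians lay below those of the Aurora, cyclin, kinetochore and spindle motor lists. They lay above those of the spindle checkpoint (0.65), centrosome (0.62) and nuclear lamina (0.65) lists. Of 41 replication fork and nucleotide supply genes 32 were at least 1.5-fold higher (median 0.80), and of 16 licensing genes 9 were (median 0.71). Pcna, the sliding clamp of the replication fork, stood at 144 CPM (138 to 149) in C4 and 78.6 CPM in the others, a log2 ratio of 0.87. Rrm2, a subunit of the enzyme that makes deoxynucleotides, stood at 191 and 94.8 CPM (1.01), Tyms, which makes thymidylate, at 124 and 61.8 CPM (1.01), and Mcm3, a subunit of the replicative helicase, at 55.9 and 31.9 CPM (0.81). Asf1b and Chaf1a, which deposit histones on new DNA, had ratios of 1.19 and 1.11. Homologous recombination and Fanconi genes were higher in 13 of 18 (median 0.71). Of the 11 genes of G1 and the G1/S step 0 were higher and 1 was lower, with a median of 0.22, or -0.29 at 100 CPM or more. The lower gene was Ccnd2, a D-type cyclin, which stood at 837 CPM against 1290 CPM (-0.62).

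The genes that were lower in C4 were fewer and were mostly outside the cycle lists. S100a6, a calcium-binding protein (chr3:90612882-90624181, plus strand), stood at 4.03 CPM (3.16 to 5.06) in C4 and 41.6 CPM (40.2 to 43.1) in the other cells, a log2 ratio of -3.37 (-3.72 to -3.04), and was named after its values were seen, since it lies under the 50 CPM of the naming rule. Rad54l, a motor protein of homologous recombination (chr4:116094264-116123690, minus strand), stood at 19.1 CPM (17.2 to 21.2) in C4 and 76.6 CPM (74.7 to 78.6) in the others, a log2 ratio of -2.0 (-2.16 to -1.85). It was the only member of its list lower by 1.5-fold while 13 others were higher. The median C4 cell held 0 Rad54l UMIs (quartiles 0 and 1) and the median other cell 2 (0 and 5). Mbp, which encodes a myelin protein, stood at 70.6 against 196 CPM (-1.47), Fam178b at 61.0 against 167 CPM (-1.46) and Car6, a secreted carbonic anhydrase, at 49.9 against 129 CPM (-1.38). Mxd4, a MAX partner known to be high in cells that leave the cycle, had a ratio of -1.62, Fgd2, a guanine nucleotide exchange factor, -1.69, Cnn2, a calponin, -1.32, S100a11 -1.01 and Tspan17 -1.0.

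Lists outside the cycle showed small ratios. None of 86 cytosolic ribosomal protein genes was past 1.5-fold in either direction, and their median was -0.15. Mitochondrially encoded genes had a median of -0.14 with 0 of 12 past 1.5-fold, and glycolysis genes -0.23 with 1 of 14 lower, Hk1, the first enzyme of the pathway. Immediate early genes, the fast responders to growth signals, had a median of -0.37, with 4 of 14 lower and 1 higher. The pigment list had a median of 0.19, with 1 of 17 members higher, Tyr at 0.62, and 1 lower, the melanocortin receptor gene Mc1r at -0.77. The lineage regulator Mitf itself stood at 88.4 CPM in C4 and 91.1 CPM in the others, a log2 ratio of -0.04 (-0.12 to 0.03), so its transcript was not distinguishable between them beyond counting error. Splicing genes had a median of 0.30 with 2 of 29 higher, among them Srsf7 at 0.74.

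The comparison with the other cycling B16F0 cells asks what is left once the cycling class is shared. Of 5144 genes, 35 were at least 2-fold higher in the 467 cycling C4 cells than in the other 944 cycling cells (0.68%) and 22 at least 2-fold lower (0.428%). Among the 35, 2 genes, Aurka and Cenpl, belonged to a cell cycle list as defined above, against 94 of the 137 genes of the first comparison. The share of such genes among all 5144 was not counted. At 1.5-fold and 10 CPM, 343 of 7245 genes (4.73%) were higher and 142 (1.96%) lower. Of the 35 higher genes 14 (40%) lay on chromosome 14, which carried 158 of the 5144 genes (3.07%). Both comparisons contain the same C4 cells and partly the same other cells, so their counts are not independent.

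Within the cycling class, some mitotic genes were higher in C4 and replication genes were near equal. Of 53 Seurat G2M genes 20 were at least 1.5-fold higher in C4 (median 0.48), as were 11 of 25 spindle motor genes (median 0.55, or 0.15 at 100 CPM or more), 8 of 31 kinetochore genes (median 0.37) and 2 of 7 Aurora complex genes (median 0.46). Reep4 kept a log2 ratio of 1.49 (69.7 against 24.8 CPM) and Aurka of 1.07 (79.0 against 37.6 CPM), whereas Cdc20 stood at 0.93 and Ccnb1 at 0.82. Of 43 Seurat S genes 0 were higher and 2 lower, with a median of 0.03 that turned to -0.01 under TMM scaling, and of 16 licensing genes none was past 1.5-fold. Ccne2, the E-type cyclin of the G1/S step, was lower in C4 at 10.5 against 17.2 CPM (-0.72, -0.96 to -0.48). Of the 944 other cycling cells, 376 had the larger score G2M and 568 the larger score S.

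Pigment genes were higher in C4 than in the other cycling cells. Tyr, which encodes tyrosinase, the enzyme that starts melanin synthesis (chr7:87424771-87493512, minus strand), stood at 89.2 CPM (84.9 to 93.6) against 27.6 CPM (25.9 to 29.4), a log2 ratio of 1.69 (1.58 to 1.81). Pmel, the fibril protein of the melanosome, stood at 1613 against 877 CPM (0.88), Trpm1, a melanocyte channel, at 86.6 against 50.7 CPM (0.77), and Dct, the next melanin enzyme, at 2871 against 1891 CPM (0.60). Tyrp1 and Mlana differed less, with ratios of 0.43 and 0.23. Over the list, 5 of 17 genes were higher by 1.5-fold, 0 were lower and the median was 0.36. Cited1, a transcriptional cofactor of pigment cells, stood at 109 against 42.1 CPM (1.38). Mitf was close in both groups, 88.3 against 78.5 CPM (0.17, 0.08 to 0.26), and Pax3, a neural crest regulator upstream of it, stood at 193 against 109 CPM (0.83). The MITF score went the same way, with medians of 0.133 in the cycling C4 cells and -0.0901 in the other cycling cells. It scores MITF targets in these same cells and is not independent of the pigment genes. Over 424 thinned C4 cells its Spearman correlation was 0.604 with Pmel and 0.382 with Tyr.

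Genes at low level in the other cycling cells had the highest ratios. Ptprb, a receptor tyrosine phosphatase (chr10:116275523-116389535, plus strand), stood at 35.0 CPM (32.4 to 37.8) in cycling C4 cells and 5.93 CPM (5.15 to 6.80) in the other cycling cells, a log2 ratio of 2.56 (2.33 to 2.80). Eya1, a phosphatase and transcriptional coactivator, stood at 24.1 against 4.2 CPM (2.52) and Shc4, an adaptor of receptor tyrosine kinases, at 28.3 against 6.88 CPM (2.04). These 3 genes were named after their values were seen. Thinned cells held a Ptprb UMI in 41.3% of C4 cells and 1.98% of C2 cells, and without thinning in 56.9% and 3.88%, at median depths of 38645 and 36512.5 UMIs. The transcript was thus spread over many C4 cells rather than concentrated in a few.

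Some genes of oxidative stress and some of secreted proteins differed in the same comparison. Srxn1, which repairs oxidised peroxiredoxins, stood at 108 against 42.6 CPM (1.34), and Hmox1, the haem-degrading enzyme, at 143 against 65.9 CPM (1.12). Gclm, a subunit of the glutathione synthesis enzyme, had a ratio of 0.97 and Slc7a11, the cystine transporter, 0.70, while Txnrd1 had 0.38 and Nqo1, at 4.49 CPM in the other cycling cells, -0.58. Apoe, a lipid carrier protein, stood at 1034 against 506 CPM (1.03), Creg1, a secreted glycoprotein, at 158 against 68.4 CPM (1.21), Lgals3, the lectin galectin-3, at 124.5 against 57.0 CPM (1.13) and Ptgds, which makes prostaglandin D, at 1654 against 1020 CPM (0.70). Ero1l, an oxidase of protein folding, stood at 199.5 against 85.7 CPM (1.22), and the stress gene Gadd45a at 51.8 against 23.2 CPM (1.16). Both Gadd45a and Hmox1 were higher in the C4 cells that Cluster1 placed in F10 than in the other C4 cells, as given below. Their C4 values are thus above the level of most C4 cells. Of 16 CDK inhibitor and p53 target genes 3 were at least 1.5-fold higher, with a median of 0.20 and a highest ratio of 1.16. Hmox1, Gclm, Slc7a11, Txnrd1, Nqo1, Apoe and Ptgds were named after their values were seen.

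The chemokine genes differed from the rest in how they were spread over cells. Ccl5, a chemokine that attracts T cells, stood at 100.4 against 42.3 CPM (1.25), yet a Ccl5 UMI was present in 7.55% of thinned C4 cells and 7.21% of thinned C2 cells, and the fullest C4 cell alone held 335 UMIs. Its variance over thinned C4 cells was 86.1 times its mean, the largest such ratio (Fano factor) of all genes tested, beside 81.6 in C2. Cxcl10, an interferon-induced chemokine, stood at 41.2 against 14.4 CPM (1.52) and was present in 22.2% of thinned C4 cells against 12.6% in C2. Ifit1, another interferon-induced gene, had a Fano factor of 24.2 at a mean of 0.483 UMIs.

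The same C4 cells were set against the other cycling cells for the lower genes. S100a6 stood at 4.04 against 40.6 CPM (-3.33), Prkg2, a cGMP-dependent kinase, at 5.18 against 38.0 CPM (-2.87), and Rad54l at 19.1 against 97.3 CPM, a log2 ratio of -2.35 (-2.51 to -2.19). Mbp, Fam178b, Car6, Fgd2 and Cnn2 had ratios between -1.65 and -1.26. Pmp22, a membrane protein of myelin, had -1.09, Hes1, a Notch target, -1.05, Lmo1, a LIM-domain cofactor, -1.05 and Mxd4 -1.08.

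**Figure D3:**
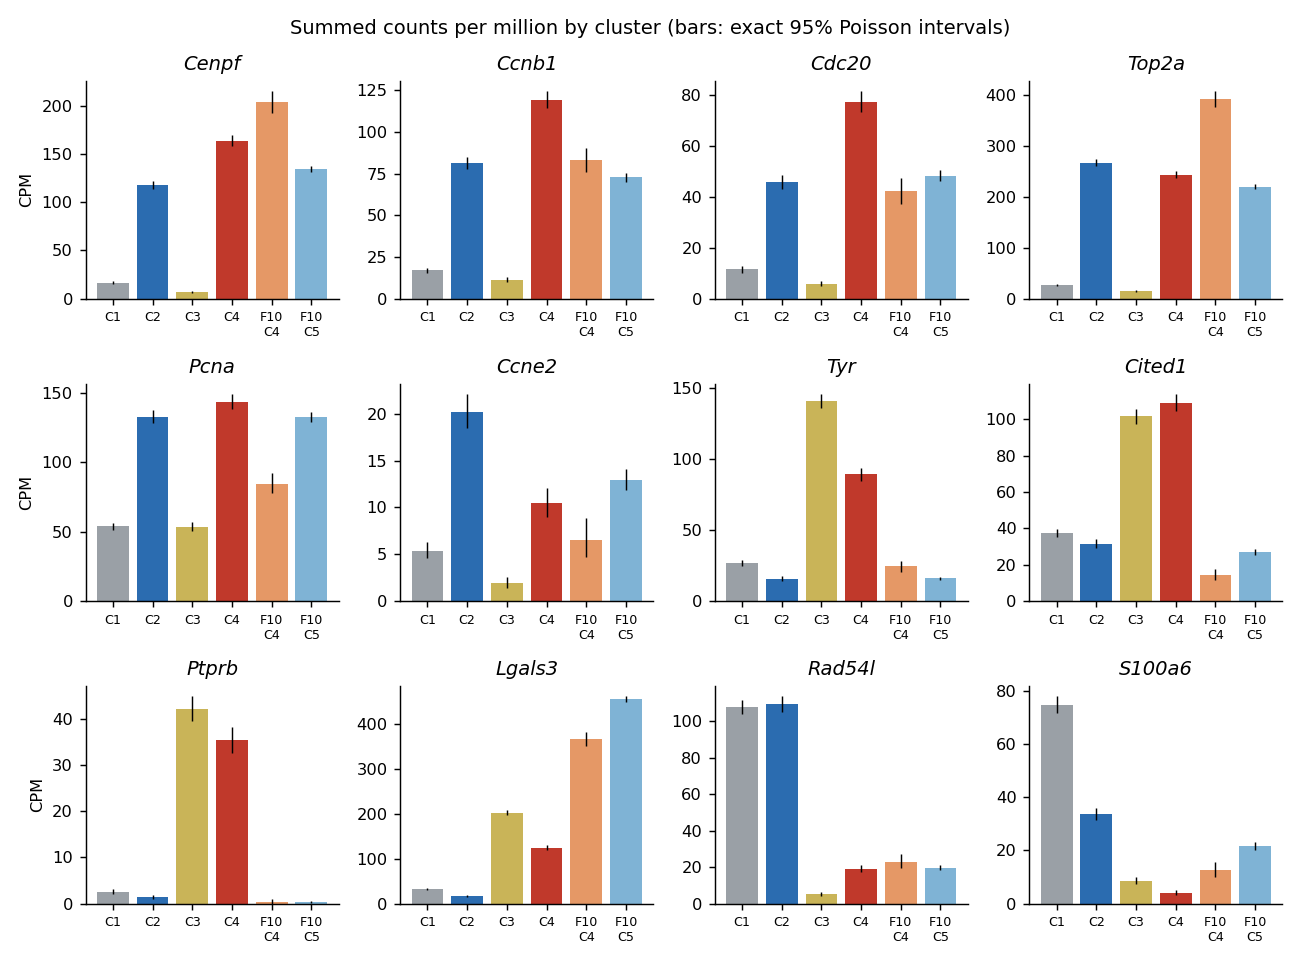
CPM (bar height) of selected genes in B16F0 clusters C1 to C4 and in B16F10 C4 and C5, with exact 95% Poisson intervals as error bars. Ptprb and Lgals3 are high in C4 and C3 (35.3 and 42.1 CPM for Ptprb) and low in C1 and C2, and Rad54l and S100a6 are low in C4 and C3 (19.1 CPM of Rad54l in C4 and 109 CPM in C2).

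Set beside each cluster, C4 shared its cycle genes with C2 and these other genes with C3. This comparison was added after the values above had been seen. Top2a stood at 243 CPM in C4 and 266 CPM in C2, against 27.7 in C1 and 14.96 in C3. Ptprb stood at 35.3 CPM in C4 and 42.1 CPM in C3, against 2.62 in C1 and 1.404 in C2. Tyr was also higher in C3 and C4 than in C1 and C2, at 89.2 CPM in C4, 141 in C3, 26.9 in C1 and 15.95 in C2, as was Lgals3 at 124, 202, 33.1 and 17.1 CPM. Rad54l was lower in C3 and C4 than in C1 and C2, at 19.1 CPM in C4, 5.26 in C3, 108 in C1 and 109 in C2, and so was S100a6, at 4.03, 8.65, 74.7 and 33.7 CPM. The 13 C5 cells of this line were between for Ptprb, at 25.1 CPM, and for Rad54l, at 31.9 CPM.

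Against C2 alone, 62 of 5185 genes were at least 2-fold higher in C4 (1.2%) and 26 at least 2-fold lower (0.501%). Ptprb had a log2 ratio of 4.65 (4.15 to 5.2), Eya1 3.98, Shc4 3.04, Lgals3 2.86 and Tyr 2.48 (2.32 to 2.65). Prkg2 had -3.20, S100a6 -3.06 and Rad54l -2.51 (-2.68 to -2.35). The Seurat G2M list had a median of 0.23 and the Seurat S list of -0.09, where all genes had 0.01. Spindle motors had 0.24 and G2 and M cyclins and regulators 0.20, while cytokinesis genes had -0.06 and replication fork genes -0.09. Across 5346 genes, the log2 ratio of C4 over C2 had a Pearson correlation of 0.841 with the log2 ratio of C3 over C1. The Spearman correlation, which uses ranks, was lower at 0.775. These 4 groups share no cells, but they come from 1 library and from a clustering of the same genes, and genes are not independent replicates.

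Of the 62 genes higher in C4 than in C2, 30 lay on chromosome 14 (48.4%), which carried 157 of the 5185 genes at this level (3.03%). They included Psmb5, a catalytic subunit of the proteasome, at 291 against 123 CPM (1.24), Ero1l at 199.7 against 72.5 CPM (1.46), and Ngdn, at 73.5 against 31.3 CPM (1.23). The offset was a property of most chromosome 14 genes and not of a few: 153 of 157 had a log2 ratio above 0 and their median was 0.74 (quartiles 0.47 and 0.92). Chromosome 1 had a median of 0.31 over 285 genes, chromosome 2 of 0.21 over 418 and chromosome 7 of 0.20 over 336, while every other chromosome had a median between -0.11 and 0.01. Windows of 10 Mb along chromosome 14 had medians between 0.18 and 0.99, none of them below 0, although the windows held between 1 and 39 genes. Copy number was not measured here, and whether DNA content differs between the clusters was not tested.

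**Figure D4:**
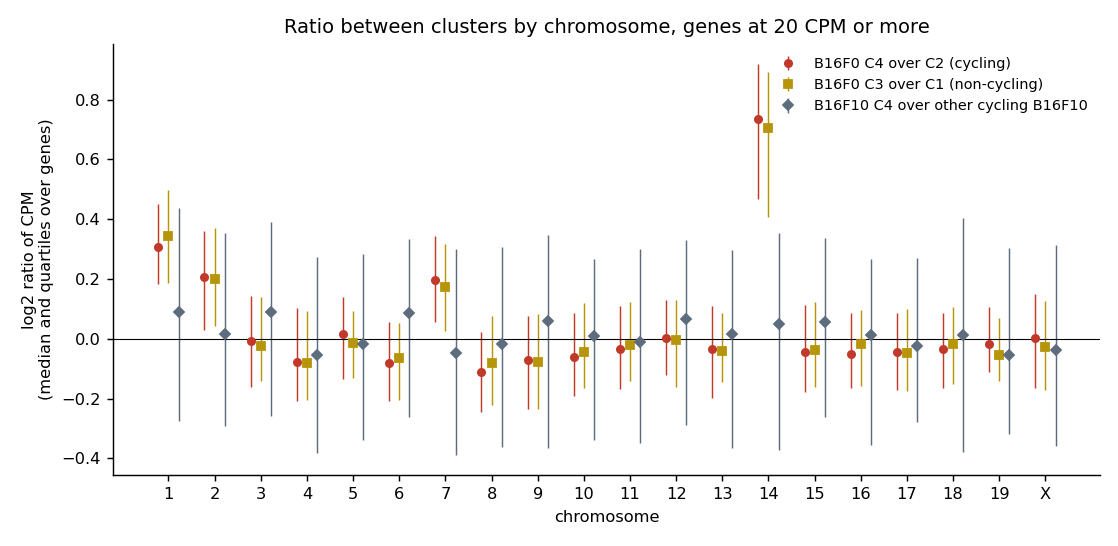
Median log2 ratio of the genes of each chromosome, over genes with at least 20 CPM on the higher side, with quartiles as bars, for B16F0 C4 over C2, B16F0 C3 over C1 and B16F10 C4 over the other cycling B16F10 cells. Chromosome 14 stands at 0.74 in C4 over C2, and chromosomes 1, 2 and 7 between 0.20 and 0.31.

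The chromosome 14 offset touches several results above. The 2-fold count against the other cycling cells fell from 35 to 10 genes when the genes of chromosomes 1, 2, 7 and 14 were left out, and Reep4, Pbk, Lgals3, Dct, Ero1l and Psmb5 lie on chromosome 14. Against the other cycling cells, proteasome genes had a median of 0.13 with 3 of 31 higher, among them Psmb5 (1.0) and Psmc6 (0.97), both on chromosome 14. Of the other named genes, Tyr, Trpm1 and Apoe lie on chromosome 7, Cenpf, Creg1, Pax3 and Eya1 on chromosome 1, and Ube2c, Srxn1, Shc4, Aurka and Ptgds on chromosome 2. Chromosome 2 carried 25 of the 137 genes higher than in all other B16F0 cells (18.2%), against 8.07% of the genes at that level. Outside these 4 chromosomes, Ptprb and Pmel lie on chromosome 10, Hmox1 on 8, Rad54l on 4, S100a6 on 3 and Cited1 on X. Without the genes of these 4 chromosomes, the Pearson correlation of C4 over C2 with C3 over C1 was 0.827 over 4111 genes, and the Spearman correlation 0.716.

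Single cells carried the same offset. Chromosome 14 genes took a median of 2.99% of the UMIs of a C4 cell (quartiles 2.75% and 3.16%), against 1.83% in C2 (1.74% and 1.92%), 1.86% in C1 and 3.04% in C3. Of the 469 C4 cells, 449 (95.7%, 93.5 to 97.4) lay above 2.14%, the 95th percentile of C2. The C4 cells were not uniform: 374 (79.7%) held 2.6% or more, 70 (14.9%) between 2.2% and 2.6%, and 25 (5.33%) under 2.2%. In the 25 lowest cells Rad54l stood at 42.5 CPM (30.2 to 58.1) and S100a6 at 17.4 CPM (9.97 to 28.3), against 17.1 and 3.29 CPM in the 374 highest. Ptprb stood at 20.7 CPM (12.5 to 32.4) in the lowest, 29.4 in the middle and 37.3 (34.3 to 40.6) in the highest, and Tyr at 49.1, 76.0 and 94.4 CPM. Eya1, at 21.8, 12.3 and 26.6 CPM, was not ordered by the share, Mbp stood at 78.5, 72.9 and 69.7 CPM, and Cenpf at 178, 178 and 160 CPM. These ranges were cut after the values were seen and are ranges, not cell types.

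**Figure D5:**
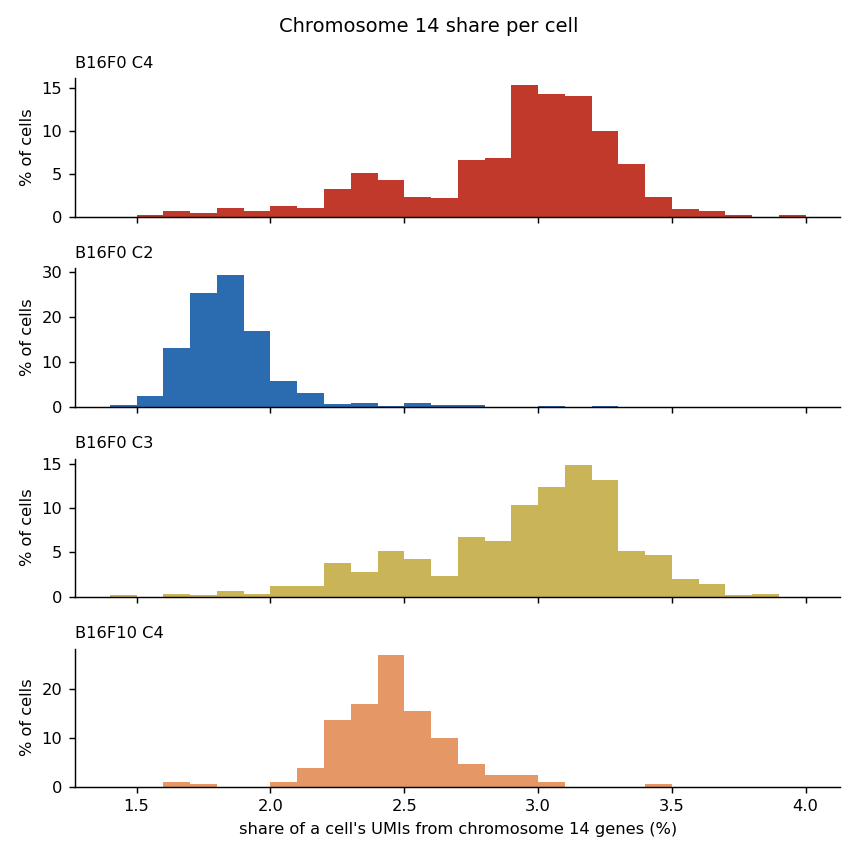
Share of each cell's UMIs that comes from chromosome 14 genes (horizontal axis, percent) against the percent of cells in each bin (vertical axis), for B16F0 C4, C2 and C3 and for B16F10 C4. C4 cells lie around a median of 2.99%, apart from C2 cells around 1.83%, with 25 C4 cells under 2.2%.

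Promoters are shown for a gene at either end of this comparison, because neither repeats the pair of motifs of the mitotic genes. The windows are chr7:87493463-87493762 (minus strand) for Tyr, with capitals at the E-box CATGTG, the type of motif known to be bound by MITF, and chr4:116123641-116123940 (minus strand) for Rad54l, with capitals at its CCAAT box. The Tyr window also holds the letters CCAAT once, not in capitals, neither window holds a cell cycle homology region or an E2F motif, and RefSeq lists 2 starts for Rad54l, of which the more upstream is shown. The E-box and the antioxidant element below were added to the search after the data were seen.
Tyr: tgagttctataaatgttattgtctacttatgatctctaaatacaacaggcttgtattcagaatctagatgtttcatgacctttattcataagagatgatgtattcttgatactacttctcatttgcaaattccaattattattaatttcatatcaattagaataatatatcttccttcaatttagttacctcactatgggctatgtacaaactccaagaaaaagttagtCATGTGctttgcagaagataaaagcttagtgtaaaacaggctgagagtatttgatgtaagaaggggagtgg
Rad54l: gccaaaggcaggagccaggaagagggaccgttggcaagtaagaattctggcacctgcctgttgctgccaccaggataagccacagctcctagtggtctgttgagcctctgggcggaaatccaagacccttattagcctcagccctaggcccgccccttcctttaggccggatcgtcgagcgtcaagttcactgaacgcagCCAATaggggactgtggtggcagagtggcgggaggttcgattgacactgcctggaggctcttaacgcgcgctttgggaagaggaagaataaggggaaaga

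Of the 35 genes at least 2-fold higher in C4 than in other cycling cells, 28 had a matched promoter. A cell cycle homology region was present in 8 (28.6%), a CCAAT box in 14 (50%) and an E2F motif in 2 (7.14%), set beside 19.2%, 39.2% and 19.3% of the 4118 promoters of all genes at that level. A cell cycle homology region and a CCAAT box together were present in 2 (7.14%), near the 8.1% of the 4118. The E-boxes CATGTG or CACGTG were present in 3 of the 28 (10.7%), against 19.0% of the 4118 and 20.5% of all 27025 promoters, and in 8 of 18 promoters (44.4%) of the genes lower than in other cycling cells. The antioxidant response element TGACNNNGC was present in 6 (21.4%), against 15.5% and 12.4%. Both were searched on either strand.

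Within C4, cells ordered by G2M.Score passed from replication genes to mitotic genes. The 157 cells of the lowest range, the 156 of the middle and the 156 of the highest held summed licensing genes of 1141, 777 and 574 CPM and summed G2 and M cyclins and regulators of 1019, 1543 and 2648 CPM. Genes of the Aurora complex went from 447 to 908 and 1303 CPM. Single genes spanned wider ranges: Cdc20 stood at 8.57, 55.2 and 160 CPM, Ube2c at 55.7, 285 and 800 CPM and Cenpf at 32.1, 96.9 and 346 CPM, while Ccne2 went down from 22.97 to 7.39 and 2.02 CPM. Top2a varied less, at 201, 221 and 302 CPM. The score is made from such genes, so these values only describe its range.

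Genes outside the Seurat lists that followed the score are named by their Spearman correlation with G2M.Score over 424 thinned C4 cells, which share a library and a score. Ube2s, the chain-elongating enzyme of the anaphase-promoting complex, had 0.75, Arl6ip1, a protein that shapes the endoplasmic reticulum, 0.73, Ccnb1 0.70, Knstrn, a spindle protein, 0.63, H2afz 0.63, Ubald2 0.58, Tuba1c 0.57 and Cdkn2d, a CDK inhibitor, 0.57. At the other end stood E2f1, the S phase transcription factor, at -0.61, the cyclin gene Ccne1 at -0.52, the licensing factors Cdt1 at -0.44 and Orc6 at -0.43, Pclaf, a PCNA partner, at -0.41, Srm of polyamine synthesis at -0.41 and Ccnd2 at -0.39. Of the genes higher than in the other cycling cells, Reep4 and Aurka followed the score, with correlations of 0.55 and 0.73, and Cenpl less so, at 0.27. Ptprb, Hmox1 and the summed pigment list, given below, varied little along it. Aurka, unlike the genes above, is in the Seurat G2M list assumed to underlie the score, so its correlation is partly built in. Ptprb stood at 36.2, 33.2 and 36.5 CPM over the 3 ranges, Hmox1 at 136, 158 and 136 CPM and the summed pigment list at 15499, 14585 and 14623 CPM. The chromosome 14 share was 3.0%, 2.97% and 3.0%. Trajectory state 5 went from 52 cells in the lowest range to 30 and 6.

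The 8 genes with the largest Fano factors in C4 were mostly abundant genes outside the cycle. After Ccl5, the largest Fano factors belonged to the nuclear noncoding RNA Malat1 (42.1 in C4 and 45.7 in C2), the ferritin subunits Fth1 (36.3 and 37.1) and Ftl1 (33.9 and 49.5), Actb (32.1 and 41.8), Ifit1 (24.2 and 52.7), mt-Atp6 (20.4 and 26.0) and Prdx1, a peroxiredoxin (20.2 and 13.0). Of these 8 genes, Ccl5 and Prdx1 were the ones with a larger factor in C4 than in C2. Their means in thinned C4 cells reached 478 UMIs for Ftl1, 305 for mt-Atp6, 227 for Fth1 and 93.1 for Malat1, but were 2.07 for Ccl5 and 0.483 for Ifit1. A ranking by variance over mean can favour abundant genes, so it does not show that cycle genes were more even.

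The 92 C4 cells that the coarser clustering placed in F10 differed from the other 377 in the mix of cycle phases and in several gene groups. The larger score was S in 59 of the 92 (64.1%) and in 153 of the 377 (40.6%). Of 5304 genes, 26 were at least 2-fold higher in the 92 cells (0.49%) and 62 at least 2-fold lower (1.17%), a comparison added after the values were seen. Gadd45a, a growth arrest gene, stood at 138 against 31.7 CPM (2.12), Ppp1r15a, which restores translation after stress, at 180 against 52.2 CPM (1.78), Atf3, a stress transcription factor, at 45.7 against 15.9 CPM (1.52) and Hmox1 at 249 against 119 CPM (1.07). The list of the unfolded protein response and ATF4 as a whole had a median of 0.04. Grb14, an insulin receptor adaptor, had 2.83 and Tnfrsf12a, the TWEAK receptor, 1.5. Cdc20 was lower at 28.0 against 88.6 CPM (-1.66), as were Ccnb2 (-1.26), Isg15, an interferon-induced modifier (-1.66), Hspa8, a constitutive chaperone (-1.27), Vim (-1.19) and the pigment genes Trpm1 (-1.60) and Pmel (-0.92). List medians were -0.38 for the Seurat G2M genes, -0.62 for cholesterol synthesis, -0.67 for the interferon response, -0.55 for pigment genes, -0.52 for MHC class I and -0.40 for glycolysis, where all genes had 0.01. Ptprb, at 26.0 against 37.4 CPM, and Rad54l, at 15.6 against 19.9 CPM, were on the same side of the C2 levels in both. Chromosome 14 genes had a median ratio of -0.01 between them, and the offset over C2 was 0.68 in the 92 cells and 0.72 in the 377. Without the 92 cells, 136 genes were at least 2-fold higher in C4 than in other B16F0 cells and 34 higher than in other cycling cells.

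B16F10 also has cells in C4, which shared the cycle scores and markers of the B16F0 cells of that name and differed from them in some of the genes above. The 212 B16F10 C4 cells had a median of 29693 UMIs and 8.58% mitochondrial UMIs, all lay in trajectory state 1, and their median scores were 0.0799 for S and 0.159 for G2M, near the B16F0 values, but -0.264 for MITF targets. Against the other B16F10 cells, 845 of 7585 genes were at least 1.5-fold higher (11.1%) and 686 lower (9.04%), including 26 of 52 Seurat G2M genes higher. Top2a stood at 391 CPM and Cenpf at 203 CPM, against 243 and 164 CPM in B16F0 C4. Ptprb stood at 0.312 CPM in B16F10 C4 and Tyr at 24.5 CPM, against 35.3 and 89.2 CPM, whereas Rad54l was low in both, at 22.97 and 19.1 CPM. Within B16F10, however, Rad54l was not 1.5-fold lower in C4 than in the other cells. The lowest log2 ratio in its list of recombination genes was -0.16 there. Glycolysis genes were lower than in the other B16F10 cells in 15 of 16 (median -0.93), and Hspa8 stood at 264 against 1133 CPM (-2.10), while in B16F0 C4 1 of 14 glycolysis genes was lower. The cells compared against were unlike: 74.7% of the other B16F10 cells were Cycling, against 44.7% of the other B16F0 cells. The other B16F10 cells were deeper than B16F10 C4, with medians of 36046 UMIs and 6.45% mitochondrial UMIs. In B16F0 the C4 cells were the deeper ones. Chromosome 14 genes took a median of 2.44% of the UMIs of a B16F10 C4 cell, and 205 of the 212 cells lay above the 95th percentile of B16F0 C2, as did 1443 of all 1574 B16F10 cells, whose median was 2.38%. Within B16F10 the chromosome 14 median of C4 against the other cycling cells was 0.05. The lines are separate libraries of 1 sample each, so a difference between them has no replicate check.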

How the data were processed

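Single-cell RNA was measured in 1 library of B16F0 and 1 of B16F10. The authors deposited whole-number UMI counts of 14959 genes in 4156 cells, with totals of 94268486 and 56748682 UMIs, and a cell annotation. Per the submitters' processing notes, Cell Ranger 3.0.0, Seurat 3.0 and mm10 were used, with no role given. The deposited cells held 3011 to 6996 genes and at most 19.9% mitochondrial UMIs. The authors also deposited natural log values, which equalled ln(1 + count/total × 10000) to within 6.22e-15 and were not used further. The authors' deposited score columns (S.Score, G2M.Score, MITF targets, pseudotime) were used as they stand. The sources used here do not give the method behind them or the clusters.

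For each group the UMIs of its cells were added up and compared as CPM, using genes with at least 20 CPM on the higher side and 2-fold, or for gene lists 10 CPM and 1.5-fold. A count of 3 UMIs is 0.163 CPM in C4 and 0.0395 CPM in the other B16F0 cells. For shares of cells with a UMI, correlations and Fano factors, cells were thinned to 19718 UMIs, leaving out 45 C4, 214 other and, of these, 89 C2 cells. No doublet caller was run, and an alternative left out the 5% of cells with the most UMIs. Of the symbols, 14751 (98.6%) matched 1 gene in the GENCODE annotation of GRCm38. Near-identical copies (tubulins, histones, ribosomal proteins) can share reads and are uncertain.

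Named genes were the 15 highest and 10 lowest against the other B16F0 cells and the 10 highest and 10 lowest against the other cycling cells at 50 CPM or more, leaving out ribosomal protein, mitochondrial and unnamed genes. They were also 3 members of each list, the 8 largest Fano factors, the 8 highest and 8 lowest correlations with G2M.Score, and a few fixed genes. Some genes that the rule names are not reported here. The members, lists and rules were chosen with earlier results of these data known, and the comparisons with C2, of C3 with C1, by Cluster1 and by chromosome were added after seeing the data. The tools were Python 3.11.15 with numpy 2.4.6, scipy 1.17.1, pandas 2.3.3 and matplotlib 3.10.9, and R 4.3.3 with edgeR 4.0.16 and DESeq2 1.42.0 for alternative scaling only. The calculations were tested on simulated data.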

Additional observations from a re-analysis of the deposited data

How the results depend on the processing

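No paired analysis was possible because each line has 1 library, and with 1 library no replicate could be left out. No named gene past its fold turned direction under these alternatives, while some list medians changed sign. The counts of genes 2-fold apart depended mainly on the minimum level and the fold. Against the other B16F0 cells, 221 genes were higher and 79 lower at 5 CPM, 32 and 4 at 100 CPM, and 394 and 82 at 1.5-fold. Against the other cycling cells the counts were 77 and 70 at 5 CPM, 9 and 5 at 100 CPM, and 230 and 81 at 1.5-fold, and 10 genes were higher without the genes of chromosomes 1, 2, 7 and 14. Other scalings, at most 10% mitochondrial UMIs, leaving out the 5% deepest cells, the shared barcodes or the 92 C4 cells of Cluster1 F10 kept these counts within 1.5 times. Scaling shifted the median of all genes by at most -0.07. Of the list medians, 747 values stayed within the spread of the members and 10 did not. At 100 CPM the medians against the other B16F0 cells were 0.48 for spindle motors, -0.0082 for cytokinesis, 0.26 for nuclear lamina and -0.29 for G1 cyclins, and the median against other cycling cells was 0.15 for spindle motors, all over fewer genes. With no minimum they were 0.46 for replication-dependent histones (-0.67 at 10 CPM), -0.13 for dedifferentiation genes and 0.30 for interferon genes. Mitochondrially encoded genes had -0.20 under TMM and -0.20 with totals that leave out mitochondrial and ribosomal protein genes. All 424 C4 cells at or above the 10th percentile of UMIs were Cycling (100%). Among genes 1.5-fold higher, 33.5% of promoters held a cell cycle homology region and 54.5% a CCAAT box. Of single named genes, 2651 values stayed within their intervals and 499 moved beyond them. A change of sign was looked for only in genes at least 2-fold apart at 20 CPM or more. Depth limits the genes of a few CPM, whose intervals are wide.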
